A study of Mus musculus with 10 samples.

Results

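mRNA levels of the CREB and ATF family genes Creb1, Crem, Atf1, Atf2 and Atf7 were taken from Affymetrix mouse expression arrays of primary keratinocytes. The members were chosen by name, as every probe set that carries one of these symbols and no other, and each probe set is reported separately. The 5 genes gave 17 of the 45101 probe sets of the array, in 4 genes (6 for Creb1, 4 for Crem, 5 for Atf2 and 2 for Atf7). Atf1 has no value here, because its only probe set also carries the symbol Atf1-ps. The choice of these genes, and the wish to keep the Creb1 probe sets apart, were made with earlier results of these arrays in view.

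The cells came from newborn (P1) FVB mice. Undifferentiated keratinocytes (n = 2 arrays) stayed in medium with 0.05 mM calcium, and differentiated keratinocytes (n = 4) were moved to 0.4 mM calcium for 2 days, the step that starts differentiation in these cultures. A-C/EBP keratinocytes (n = 2) were differentiated in the same calcium while expressing A-C/EBP, a dominant negative protein that pairs with C/EBP family factors and keeps them off DNA. It was expressed in keratinocytes from a transgene that doxycycline keeps silent, and doxycycline was taken away before the calcium was raised. The labels give FVB for all arrays and do not say whether the differentiated controls carried the transgene or had met doxycycline. 5-AZA keratinocytes (n = 2) were differentiated after 1 µM 5-azacytidine, an inhibitor of DNA methylation, had been added soon after seeding. One of the A-C/EBP arrays carries different replicate numbers in its title and its description, and the title was followed. It is not stated whether replicates were separate cultures. The tests therefore weigh a difference against the spread among these arrays alone, and that spread may be technical.

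CREB1, CREM and ATF1 are closely related leucine zipper factors that bind the cAMP response element as pairs and are switched on when protein kinase A, or kinases of growth factor and stress pathways, phosphorylate them. The phosphorylated proteins recruit the coactivators CBP and p300, and the CRTC coactivators join them when salt-inducible kinases are silent. ATF2 and ATF7 form a separate branch that is phosphorylated by the stress kinases JNK and p38 and pairs with c-Jun. Because the proteins are controlled largely by phosphorylation, their mRNA levels are only one layer of their regulation. CREM is also known for a short inducible form, ICER, that starts from an internal promoter and represses cAMP response genes.

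The promoters of the members are shown because A-C/EBP acts through factors bound at promoters and 5-azacytidine through the methylation of CG dinucleotides. Of the 5 genes, Creb1, Atf2 and Atf7 are printed from RefSeq (GRCm38.p6), each running from 250 bases before to 50 bases after the start of the gene, 5′ to 3′ on the strand of the gene. Capitals mark GC boxes (GGGCGG) and CCAAT boxes (CCAAT) on either strand.
Creb1 (chr1:64532554-64532853, plus strand): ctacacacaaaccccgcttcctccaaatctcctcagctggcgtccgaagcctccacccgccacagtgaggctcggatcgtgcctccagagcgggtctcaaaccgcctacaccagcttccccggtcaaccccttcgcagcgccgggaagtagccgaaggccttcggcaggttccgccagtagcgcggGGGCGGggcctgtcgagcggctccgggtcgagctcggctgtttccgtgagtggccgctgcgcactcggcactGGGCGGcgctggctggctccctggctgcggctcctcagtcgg
Atf2 (chr2:73892590-73892889, minus strand): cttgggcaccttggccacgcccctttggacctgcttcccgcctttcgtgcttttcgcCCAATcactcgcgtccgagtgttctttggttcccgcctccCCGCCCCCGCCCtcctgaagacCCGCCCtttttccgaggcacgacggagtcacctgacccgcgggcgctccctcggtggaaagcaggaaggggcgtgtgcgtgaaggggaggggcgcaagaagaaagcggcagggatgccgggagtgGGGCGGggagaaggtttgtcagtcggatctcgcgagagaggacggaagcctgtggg
Atf7 (chr15:102625415-102625714, minus strand): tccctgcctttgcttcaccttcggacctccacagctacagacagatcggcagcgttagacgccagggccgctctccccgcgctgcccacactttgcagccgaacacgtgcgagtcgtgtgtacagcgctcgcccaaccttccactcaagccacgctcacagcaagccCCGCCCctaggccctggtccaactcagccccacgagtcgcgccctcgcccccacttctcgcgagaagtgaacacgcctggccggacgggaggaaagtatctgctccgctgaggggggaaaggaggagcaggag

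These 3 windows are rich in G and C, with 69.0% for Creb1, 66.0% for Atf2 and 65.0% for Atf7. They hold 31, 28 and 25 CG dinucleotides, where the median over 32851 promoters of the same length is 7. The Creb1 window holds 2 GC boxes, Atf2 holds 4 beside 1 CCAAT box, and Atf7 holds 1 GC box. GC boxes were found in 35.7% and CCAAT boxes in 37.4% of all promoters. None of the 3 windows holds the full cAMP response element TGACGTCA, which 1.79% of all promoters hold, or its shorter site TGACG (20.8%, the full element included). The C/EBP letters TTGCGCAA (0.183% of promoters) and the AP-1 letters TGACTCA (5.2%) were not found in them either. All were searched on both strands, and a match or its absence concerns these letters in these windows only.

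The arrays were alike in their overall distribution, with medians of 4.64 to 4.78 and maxima of 13.67 to 14.58 on the log2 scale, the lowest maximum in differentiated replicate 2. Replicates of a group correlated at r = 0.986 to 0.996 over probe sets. The mean of the spiked hybridization controls was higher in replicate 2 than in replicate 1 of every group and reached its highest value, 11.08, in A-C/EBP replicate 2, where the other arrays had 8.66 to 10.33. The 6 measured keratinocyte markers lay above the array median in all arrays, with Krt5 at 12.75 to 13.93 and Krt14 at 11.29 to 12.12. The mean of this list was 10.23 and 10.97 in undifferentiated, 9.85 to 10.13 in differentiated, 10.54 and 10.86 in A-C/EBP and 9.73 and 9.59 in 5-AZA arrays. Within it, Trp63 was 8.32 and 8.69 in undifferentiated against 6.93 to 7.27 in differentiated arrays. The suprabasal keratin Krt1 was 9.18 and 10.98 in undifferentiated and 10.21 and 10.95 in A-C/EBP against 8.38 to 9.17 in differentiated arrays. Krt10 was 8.33 and 9.96 in undifferentiated against 7.60 to 8.10 in differentiated arrays. Ivl alone of the list was lower in both undifferentiated arrays, with 9.72 and 10.38 against 10.72 to 11.11 in differentiated arrays. The 4 melanocyte markers Dct, Tyrp1, Pmel and Mlana were also high in all 10 arrays (mean of the list 9.62 to 10.61), with 9.91 to 10.61 in A-C/EBP and 9.62 to 10.22 in differentiated arrays. The fibroblast list had means of 4.57 to 5.55, the immune list 4.61 to 5.41 and the endothelial list 4.26 to 4.41, and of these lists Lum, Ptprc, Cd74, Cd207, Pecam1 and Cdh5 lay below the array median in all arrays. Col1a1, Col1a2, Lyz2 and Kdr lay above it in all arrays, and Lyz2 measured 6.83 and 7.25 in 5-AZA against 7.65 to 9.18 in differentiated arrays. The 3′ minus 5′ difference of the Actb controls, a sign of RNA quality, was 0.68 in 5-AZA replicate 2 and 0.09 to 0.37 in the other arrays. These are bulk cultures, so a change in the number of cells of a type and a change of RNA per cell cannot be told apart, and the part of other cell types in the values below was not tested.

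Of the 17 probe sets, 11 lay above the median of their array in all 10 arrays and 6 lay below it in all 10. The probe sets above it were 5 of Creb1, 1 of Crem, 4 of Atf2 and 1 of Atf7. A probe set's level depends on its own probes, so levels are compared between arrays and not between genes. Values are log2 levels, on which a difference of 1 stands for a factor of 2.

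**Figure D1:**
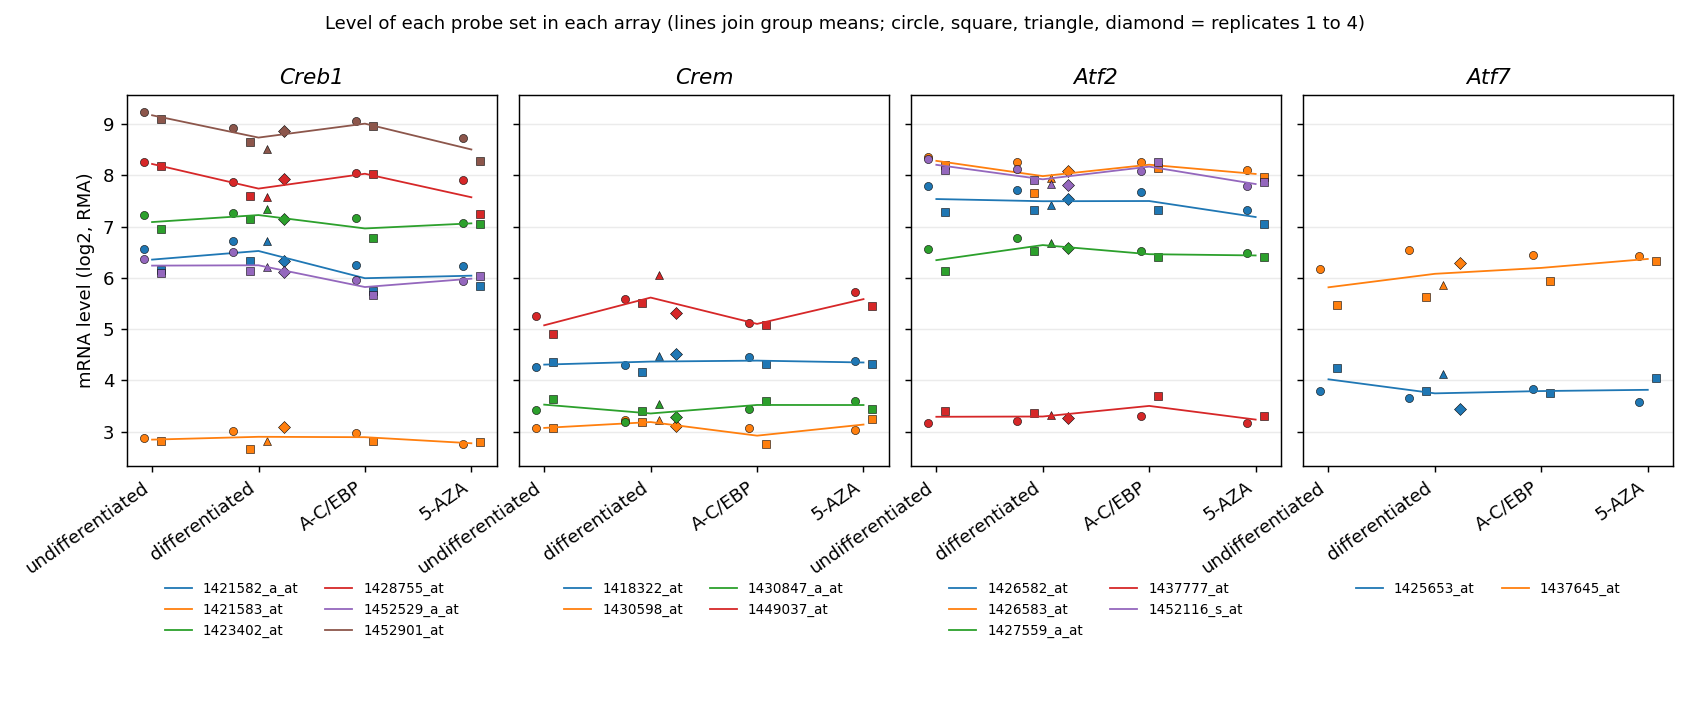
mRNA level (log2) of each of the 17 probe sets in each of the 10 arrays, by gene and condition; points are arrays, with a symbol for each replicate number, and lines join group means. The AK014391 probe sets of Creb1 (1452901_at and 1428755_at) are highest in undifferentiated arrays, while the 6 probe sets below the array median stay between 2.66 and 4.51.

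Upon differentiation no member passed the test. The limma fit took all 10 arrays together and adjusted p over 45037 probe sets (Benjamini-Hochberg), and a probe set is said to rise or fall at an adjusted p under 0.05. By this rule 4.36% of all probe sets rose and 6.28% fell, and 0 of the 17 members did either. At an unadjusted limma p under 0.05 there were 4 members (Creb1 1428755_at and 1452901_at, Crem 1449037_at and Atf2 1452116_s_at) of 17, against 20% of all probe sets. The arrays of the groups did not overlap for 4 members, against 28.2% of all probe sets. The median difference of the members was 0.01, with 10 above and 7 below 0, and that of all probe sets was −0.01. The largest member difference was the 0.54 of Crem 1449037_at, and 13.6% of all probe sets differed by more than that.

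With A-C/EBP, 0.777% of all probe sets rose and 0.222% fell relative to differentiated keratinocytes, and again 0 of the 17 members passed by the limma test. An unadjusted limma p under 0.05 was found for 4 members, Creb1 1421582_a_at and 1452529_a_at and Crem 1449037_at and 1430598_at, all lower with A-C/EBP, against 11.1% of all probe sets. For 7 of the 17 the arrays did not overlap, against 18.8% of all probe sets. The median difference was 0.02 for the members, with 10 above and 7 below 0, and 0.02 for all probe sets. With 5-AZA, 0.0377% of all probe sets rose and 0.0111% fell, and 0 members passed. Creb1 1421582_a_at alone had an unadjusted limma p under 0.05, against 7.05% of all probe sets, and the arrays did not overlap for 4 members, against 14.2%. The median difference of the members was −0.09, with 4 above and 13 below 0, and that of all probe sets was 0.03. The same 4 differentiated arrays serve in all 3 comparisons, so a differentiated array that stands low or high moves all of them.

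**Figure D2:**
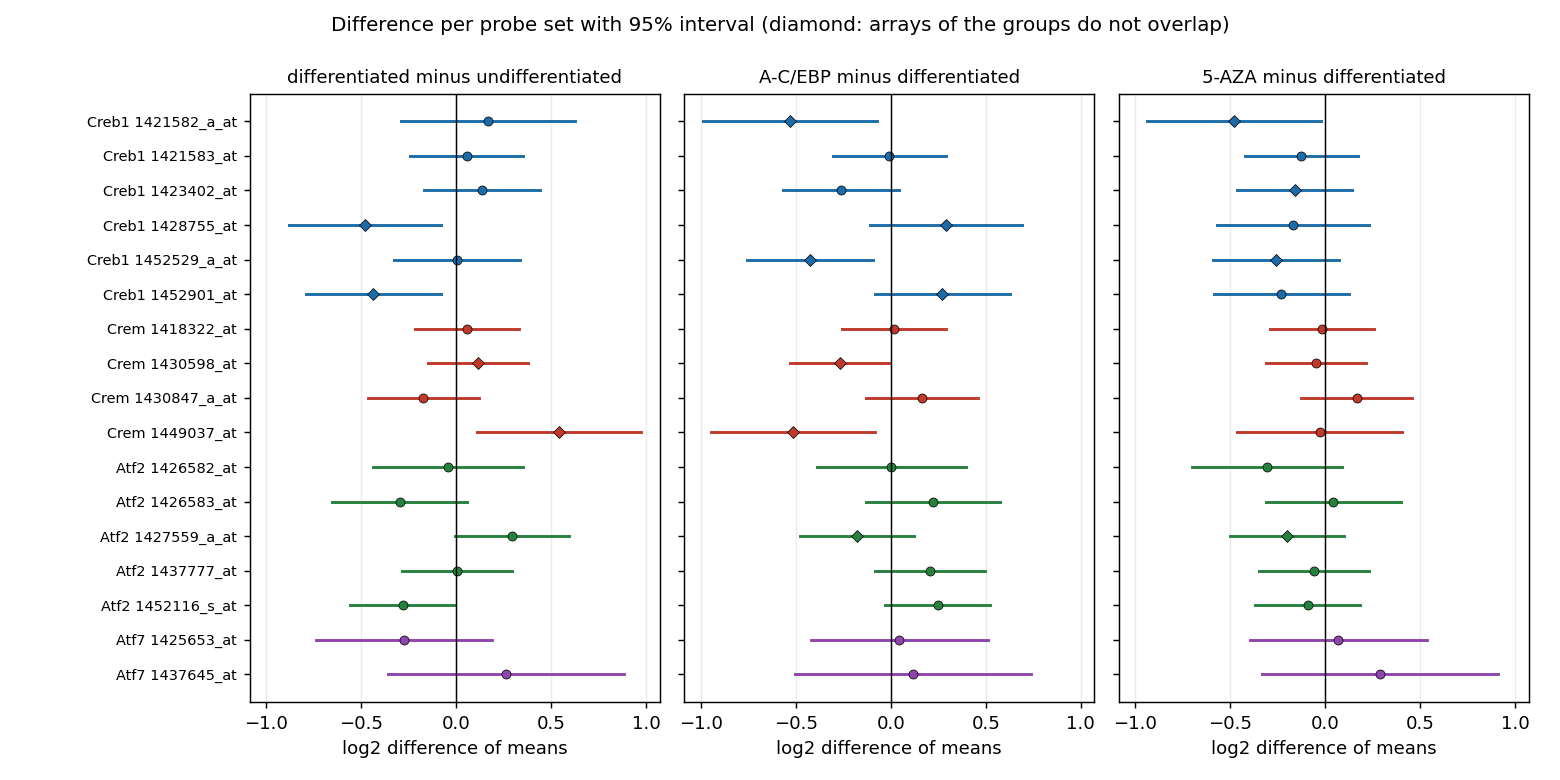
Difference of group means (log2) with its 95% interval for each of the 17 probe sets in each comparison; colours are genes, and diamonds mark probe sets whose arrays do not overlap between the groups. No interval reaches a difference of 1 in either direction, and none of the 17 differences passed the test in any comparison.

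Creb1 encodes CREB, the factor of the family that is most widely expressed. Its 6 probe sets divided into 2 with lower means and 4 with higher means upon differentiation, and the 2 with lower means were designed on the same cDNA. The 4 higher differences were only 0.01 to 0.17. Without undifferentiated replicate 2 the difference was −0.04 for 1421582_a_at and −0.13 for 1452529_a_at. Without differentiated replicate 4 it was −0.01 for 1421583_at. The brightest Creb1 probe set, 1452901_at, was designed on the cDNA AK014391. It measured 9.24 and 9.10 in undifferentiated arrays and 8.92, 8.65, 8.51 and 8.87 in differentiated arrays. Both A-C/EBP arrays, with 9.05 and 8.96, were above all differentiated arrays, and the 5-AZA arrays had 8.73 and 8.28. The undifferentiated arrays were the highest of the 10, with A-C/EBP replicate 1 close below them. The lowest was 5-AZA replicate 2, the array with the highest Actb 3′ minus 5′ difference. The mean of the keratinocyte markers was likewise above all differentiated arrays in the undifferentiated and A-C/EBP arrays. In both 5-AZA arrays the marker mean was below all differentiated arrays, whereas 5-AZA replicate 1 of this probe set, with 8.73, lay within their range. The part of the Actb difference or of the marker mean in these values was not tested. The difference upon differentiation was −0.44 (standard error 0.16, limma adjusted p = 0.136, 95% interval −0.79 to −0.08). With A-C/EBP it was 0.27 (standard error 0.16, adjusted p = 0.617) and with 5-AZA −0.23 (adjusted p = 0.874).

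The other AK014391 probe set, 1428755_at, had the same order of groups. Its levels were 8.27 and 8.18 in undifferentiated arrays and 7.86, 7.61, 7.57 and 7.92 in differentiated arrays. They were 8.04 and 8.02 with A-C/EBP, again above all differentiated arrays, but 7.90 and 7.24 with 5-AZA. The 5-AZA replicates thus lay further apart than the whole range of the differentiated arrays. The differences were −0.48 upon differentiation (standard error 0.18, limma adjusted p = 0.146), 0.29 with A-C/EBP (adjusted p = 0.649) and −0.17 with 5-AZA (adjusted p = 0.933). The first of these passed the test when either 5-AZA array was left out of the fit. Both fits are the same for this difference, since the 5-AZA array that remains adds nothing to the estimate of the spread. Over all 19 alternatives the difference upon differentiation lay between −0.54 and −0.42.

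The remaining Creb1 probe sets were designed on other sequences and did not have this order. For 1421582_a_at, designed on the reference mRNA NM_009952, undifferentiated arrays had 6.57 and 6.15 and differentiated arrays 6.71, 6.33, 6.72 and 6.34. The A-C/EBP arrays had 6.25 and 5.74 and the 5-AZA arrays 6.24 and 5.84, all below the 4 differentiated arrays. The difference was 0.17 upon differentiation (standard error 0.20, limma adjusted p = 0.807), −0.53 with A-C/EBP (standard error 0.20, adjusted p = 0.342) and −0.48 with 5-AZA (standard error 0.20, adjusted p = 0.683). The A-C/EBP value was −0.27 without A-C/EBP replicate 2 and −0.79 without replicate 1, and the 5-AZA value was −0.28 without 5-AZA replicate 2 and −0.68 without replicate 1. In every group replicate 2 was lower than replicate 1 for this probe set, the reverse of the hybridization controls, whose part in it was not tested.

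Probe set 1452529_a_at (U46027) measured 6.37 and 6.10 in undifferentiated arrays and 6.51, 6.14, 6.21 and 6.12 in differentiated arrays. It had 5.97 and 5.68 with A-C/EBP, and the 5-AZA arrays had 5.93 and 6.04, so that both treatments were again below all differentiated arrays. The differences were 0.01, −0.42 (standard error 0.15, limma adjusted p = 0.282) and −0.26 (adjusted p = 0.817). For 1423402_at (AV016085) all 10 arrays lay between 6.77 and 7.35, with differences of 0.14 upon differentiation, −0.26 with A-C/EBP (adjusted p = 0.549) and −0.16 with 5-AZA (adjusted p = 0.906). The last Creb1 probe set, 1421583_at (NM_009952), stayed between 2.66 and 3.10, below the array median, with differences of 0.06, −0.01 and −0.13. With 5-AZA all 6 Creb1 means were lower than in differentiated cells, but without 5-AZA replicate 2 the difference was 0.16 for 1428755_at and −0.01 for 1452901_at. With A-C/EBP the AK014391 pair was higher and the other 4 were lower.

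Whether a probe set moved apart from its own gene was tested on its value minus the mean of the other probe sets of that gene in the same array, over 25762 probe sets of 9010 genes. Of these, 3.41% passed upon differentiation, 0.136% under A-C/EBP and 0.00388% under 5-AZA, and 0 of the 17 members passed in any comparison. For Creb1 1428755_at this value differed by −0.47 upon differentiation (standard error 0.17, limma adjusted p = 0.212) and by 0.48 with A-C/EBP (standard error 0.17, adjusted p = 0.377). For 1452901_at it differed by −0.41 (standard error 0.15, adjusted p = 0.199) and then by 0.46 (standard error 0.15, adjusted p = 0.317). For 1421582_a_at the values were 0.31 (standard error 0.17, adjusted p = 0.469) and, with A-C/EBP, −0.51 (standard error 0.17, adjusted p = 0.342). With 5-AZA the 2 AK014391 probe sets differed by 0.08 and 0.01 against the rest of the gene. No Creb1 probe set thus passed against the rest of its gene. For an AK014391 probe set that rest includes the other AK014391 probe set. The split of Creb1 into probe sets of opposite sign was therefore not tested as such.

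As a description, made after the values were seen, the mean of the 2 AK014391 probe sets minus the mean of the other 3 bright Creb1 probe sets was 2.04 and 2.23 in undifferentiated arrays. It was 1.56, 1.59, 1.28 and 1.86 in differentiated arrays, 2.09 and 2.43 in the A-C/EBP arrays, and 1.90 and 1.45 in the 5-AZA arrays. The undifferentiated and A-C/EBP arrays were thus all above the differentiated ones, and the 5-AZA arrays lay on both sides of the highest differentiated array. The group means were 2.14 ± 0.14 (SD, n = 2), 1.57 ± 0.24 (n = 4), 2.26 ± 0.25 (n = 2) and 1.67 ± 0.32 (n = 2) in this order. Over the 10 arrays, which share their conditions and their normalization, the AK014391 probe sets correlated with each other at r = 0.975 and the other 3 at r = 0.776 to 0.900. Between these sets of probe sets r was −0.199 to 0.158.

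**Figure D3:**
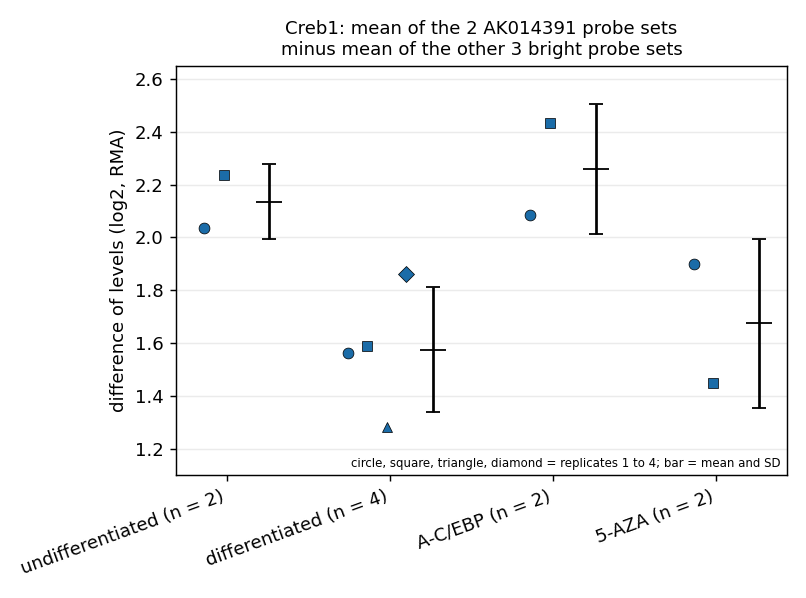
Difference of log2 levels between the mean of the 2 AK014391 probe sets of Creb1 and the mean of its other 3 bright probe sets, in each array by condition; symbols are replicates and bars the group mean and SD. Undifferentiated and A-C/EBP arrays sit at 2.04 to 2.43 and differentiated arrays at 1.28 to 1.86; no test was made of this difference, since the probe sets were grouped after their values were seen.

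Crem encodes CREM, whose transcripts give activators as well as repressors. Only 1449037_at lay above the array median. It measured 5.25 and 4.90 in undifferentiated arrays and 5.59, 5.51, 6.05 and 5.31 in differentiated arrays. The A-C/EBP arrays had 5.12 and 5.08, and the 5-AZA arrays 5.72 and 5.45. All differentiated arrays were above the undifferentiated and the A-C/EBP arrays, and the 5-AZA arrays lay within their range. The difference was 0.54 upon differentiation (standard error 0.19, limma adjusted p = 0.129, 95% interval 0.11 to 0.97), −0.51 with A-C/EBP (standard error 0.19, adjusted p = 0.329) and −0.03 with 5-AZA (adjusted p = 0.993). Against the other Crem probe sets it differed by 0.54 upon differentiation (adjusted p = 0.185) and by −0.49 with A-C/EBP (adjusted p = 0.428).

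The replicate number as a block brought the difference upon differentiation to 0.48 with an adjusted p of 0.0487, although the numbers are not known to pair these arrays. Numbers 3 and 4 occur only among differentiated arrays, so the block fitted those arrays exactly and they did not enter this difference. The other 3 Crem probe sets were below the array median in every array. For 1418322_at the levels were 4.17 to 4.51, for 1430847_a_at 3.18 to 3.63 and for 1430598_at 2.77 to 3.24. The arrays of 1430598_at did not overlap in the differentiation comparison, with a difference of 0.11, nor in the A-C/EBP comparison, with −0.27 (limma adjusted p = 0.442). Among these dim probe sets the differences ran from −0.27 to 0.17 over the 3 comparisons.

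Atf2 encodes the stress-activated partner of c-Jun. Of its 5 probe sets, 3 were designed on the same sequence, BM119623. Of these, 1426583_at had 8.37 and 8.20 in undifferentiated arrays and 8.26, 7.65, 7.96 and 8.08 in differentiated arrays. It had 8.27 and 8.15 with A-C/EBP, and the 5-AZA arrays had 8.09 and 7.96, and all groups overlapped with the differentiated arrays. The difference was −0.30 upon differentiation (standard error 0.16, limma adjusted p = 0.370), 0.22 with A-C/EBP (adjusted p = 0.718) and 0.04 with 5-AZA (adjusted p = 0.988). The probe set 1452116_s_at had 8.31 and 8.10, then 8.12, 7.92, 7.84 and 7.82, then 8.08 and 8.26 with A-C/EBP, and the 5-AZA arrays had 7.78 and 7.88. Its differences were −0.28 (adjusted p = 0.239), 0.25 (adjusted p = 0.526) and −0.09 (adjusted p = 0.954), and its identifier marks probes that can match several transcripts.

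The third of them, 1426582_at, lay between 7.04 and 7.79 in all arrays, with differences of −0.04, 0.00 and −0.31 (limma adjusted p = 0.821 for the last). The probe set 1427559_a_at, designed on M31629, was higher in differentiated than in undifferentiated arrays on average. It measured 6.56 and 6.13 in undifferentiated arrays and 6.77, 6.53, 6.67 and 6.59 in differentiated arrays. The A-C/EBP arrays had 6.52 and 6.40 and the 5-AZA arrays 6.48 and 6.40, below all differentiated arrays. The differences were 0.29 (standard error 0.13, adjusted p = 0.266), −0.18 (adjusted p = 0.742) and −0.20 (adjusted p = 0.868). Without undifferentiated replicate 2 the first was 0.08 and without undifferentiated replicate 1 it was 0.51. Against the rest of Atf2 this probe set differed by 0.45 upon differentiation (standard error 0.13, adjusted p = 0.101), the smallest adjusted p of any member in that test. The probe set 1437777_at stayed between 3.17 and 3.69, below the array median.

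Atf7 encodes the closest relative of ATF2. Its probe set 1437645_at had the largest standard error of the 17, with 6.17 and 5.46 in undifferentiated arrays and 6.54, 5.62, 5.87 and 6.29 in differentiated arrays. It had 6.46 and 5.93 with A-C/EBP, and the 5-AZA arrays had 6.42 and 6.32, and all groups overlapped. The differences were 0.26 upon differentiation (standard error 0.28, limma adjusted p = 0.761, 95% interval −0.36 to 0.88), 0.12 with A-C/EBP (adjusted p = 0.952) and 0.29 with 5-AZA (adjusted p = 0.924). These intervals hold changes of more than 0.5 in the upward direction, so the arrays could not show whether Atf7 changed by that size. The other probe set, 1425653_at, measured 3.43 to 4.25 and had differences of −0.27, 0.04 and 0.07.

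Genes that work with the members were described from lists written from general knowledge, with earlier results of these arrays known. The lists hold 216 probe sets in 78 measured genes. Upon differentiation 17 of the 216 (7.87%) passed in either direction, 2 (0.926%) did so under A-C/EBP and 0 under 5-AZA, beside the shares of all probe sets given above. Among 13 other CREB and ATF genes with 29 probe sets, 3 rose and 1 fell upon differentiation, with a median difference of 0.03, and none passed with A-C/EBP or 5-AZA. Crebl2, a CREB-like factor, measured 4.48 and 4.31 in undifferentiated arrays with 1435085_at and 7.46, 7.00, 7.49 and 7.32 in differentiated arrays. It rose by 2.92 (standard error 0.15, limma adjusted p = 9.48e-06), and in the A-C/EBP and 5-AZA arrays it lay between 7.19 and 7.42. Its other probe set, 1442738_at, had a difference of 0.23 (adjusted p = 0.270).

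Atf3, a stress-induced member of the ATF group, rose upon differentiation from 5.93 and 5.93 to 6.97, 6.87, 7.41 and 7.25, a difference of 1.20 (standard error 0.25, limma adjusted p = 0.0137). With A-C/EBP it measured 7.61 and 8.65, above all differentiated arrays, with a difference of 1.01 that did not pass (adjusted p = 0.116). Crebzf, a leucine zipper factor of the CREB and ATF group, fell with 1452857_at by 0.81 (standard error 0.19, adjusted p = 0.0219), while its other 4 probe sets had differences of −0.26 to 0.13. The remaining call, outside the rule for named genes and chosen after its value was seen, was Creb3 1424741_s_at with 0.44 (adjusted p = 0.0381). The other Creb3 probe sets had differences of 0.03 to 0.35 and did not pass.

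Of 5 coactivator genes with 12 probe sets, none passed the limma test in any comparison. Crebbp, which encodes CBP, had differences of −0.36 to −0.08 over its 4 probe sets upon differentiation, and Ep300, which encodes p300, had −0.14 (adjusted p = 0.827). Of 9 genes of protein kinase A subunits and inhibitors with 26 probe sets, 1 fell upon differentiation and none passed otherwise. This was Prkar2a, a regulatory subunit, whose probe set 1452915_at went from 9.62 and 9.44 to 9.02, 8.83, 8.81 and 8.99 (difference −0.62, standard error 0.11, adjusted p = 0.00632). The other Prkar2a probe sets had differences of −0.71, −0.44 and 0.16 and did not pass. The catalytic subunits Prkaca and Prkacb had differences of −0.07 to 0.11 over their 5 probe sets.

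Of 14 measured genes of other kinases with 54 probe sets, 3 probe sets in 2 genes rose upon differentiation and none passed with A-C/EBP or 5-AZA. Mapk8, which encodes the ATF2 kinase JNK1, rose with 1420932_at by 0.65 (standard error 0.12, limma adjusted p = 0.00803) and with 1440856_at by 0.53 (adjusted p = 0.0472), and its other 3 probe sets had 0.08 to 0.64. Camk1, a calcium-dependent kinase, rose with 1417605_s_at by 1.06 (standard error 0.27, adjusted p = 0.0344). Its other probe set, 1417604_at, had a difference of 1.08 that did not pass (adjusted p = 0.115). Of 18 measured genes of adenylyl cyclases and cAMP phosphodiesterases with 48 probe sets, 3 probe sets in 2 genes fell upon differentiation and none passed otherwise. Pde4b, a phosphodiesterase that breaks down cAMP, fell with 2 of its 6 probe sets. The differences were −0.92 with 1422473_at (standard error 0.18, adjusted p = 0.00887) and −0.95 with 1422474_at (adjusted p = 0.0110). Adcy3, a cyclase that makes cAMP, fell by 1.13 with 1421960_at (standard error 0.23, adjusted p = 0.0110), alone of its 4 probe sets.

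Of 20 measured genes given in textbooks as CREB targets, with 49 probe sets, 2 probe sets rose and 4 probe sets in 3 genes fell upon differentiation. Those with the smallest adjusted p were the replication clamp Pcna and the S phase cyclin Ccna2, which fell, and the phosphatase Dusp1, which rose. Pcna went from 12.38 and 12.18 to 11.48, 11.42, 11.40 and 11.42 (difference −0.85, standard error 0.12, limma adjusted p = 0.00135). Ccna2 fell by 2.57 with 1417910_at (standard error 0.37, adjusted p = 0.00183) and fell by 2.44 with 1417911_at (adjusted p = 0.00437), and Dusp1 rose by 1.48 (standard error 0.28, adjusted p = 0.00733). Outside the rule for named genes, and named after their values were seen, Bcl2 1457687_at rose by 0.75 (adjusted p = 0.0358) and Ccnd1 1417419_at fell by 1.59 (adjusted p = 0.0413). Each was the only probe set of its gene to pass, of 5 for Bcl2 and 3 for Ccnd1. The immediate early targets Fos and Nr4a1 had −0.27 (adjusted p = 0.738) and −0.50 (adjusted p = 0.162). With A-C/EBP, Mcl1, which encodes a survival protein, rose with 2 of its 6 probe sets, by 0.61 with 1437527_x_at (standard error 0.11, adjusted p = 0.0392) and by 0.58 with 1456381_x_at (adjusted p = 0.0401). Both end in _x_at, which marks probes that can match other transcripts, and their other 4 differences were 0.15 to 0.52.

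Most of these calls rest on the pair of undifferentiated arrays. Without either of them only 1 array was left in that group, and the number of calls over all probe sets fell too. Such a loss is therefore not particular to these lists. Without undifferentiated replicate 1, 14 of the 17 calls upon differentiation were lost and the count over the lists was 4, and without undifferentiated replicate 2, 8 were lost (Atf3, Crebzf, Creb3, Camk1, Mapk8 1440856_at, Pde4b 1422473_at, Bcl2 and Ccnd1) and the count was 10. Crebl2, Pcna and Ccna2 1417910_at passed in all 19 alternatives, with highest adjusted p-values of 0.000534, 0.0263 and 0.0315. For the others named, the highest was 0.113 for Atf3, 0.140 for Crebzf, 0.0894 for Prkar2a, 0.115 for Mapk8 1420932_at, 0.379 for Mapk8 1440856_at, 0.282 for Camk1, 0.0800 and 0.145 for Pde4b, 0.140 for Adcy3, 0.0620 for Ccna2 1417911_at and 0.0960 for Dusp1. It was 0.279 for Creb3, 0.221 for Bcl2 and 0.248 for Ccnd1. The call of Mapk8 1440856_at was lost without any 1 of 9 arrays, Creb3 without any 1 undifferentiated or differentiated array, and Ccnd1 without either undifferentiated or A-C/EBP array or differentiated replicates 1 or 4. Bcl2 and Camk1 were lost without either undifferentiated array or differentiated replicates 1 or 4, Bcl2 also without replicate 2 and Camk1 without replicate 3, and Crebzf was lost without differentiated replicate 4. The Mcl1 calls with A-C/EBP were lost without any 1 A-C/EBP, differentiated or undifferentiated array (highest adjusted p = 0.250 and 0.321), and 1456381_x_at also without either 5-AZA array.

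**Figure D4:**
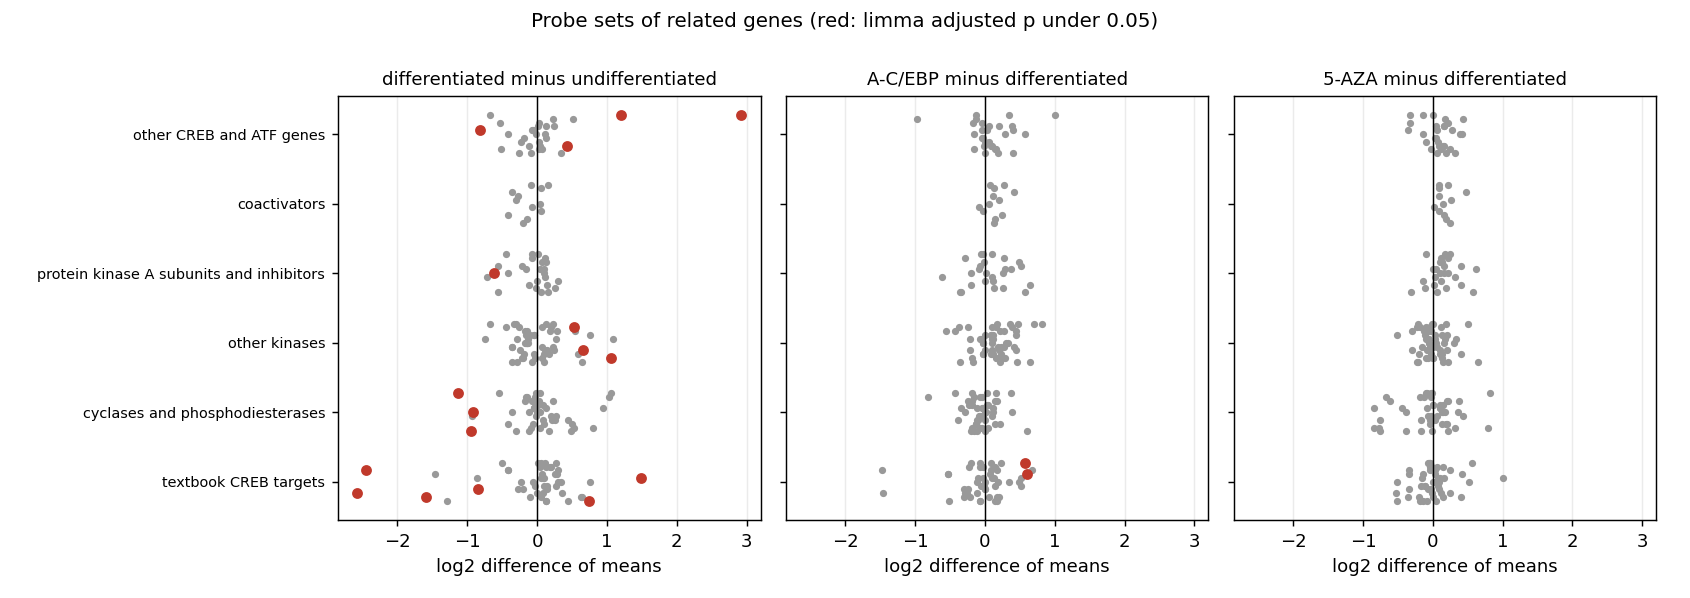
Difference of group means (log2) of each probe set of the 6 lists of related genes in each comparison; red points passed at a limma adjusted p under 0.05 and grey points did not, and the vertical scatter within a list has no meaning. Calls lie in the differentiation panel, with Crebl2 at 2.92 and Ccna2 at −2.57 the farthest from 0, apart from 2 probe sets of Mcl1 with A-C/EBP.

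The genes most like each member were sought by Pearson's correlation of the brightest probe set over the 10 arrays, among 20148 probe sets with 1 symbol and a mean above the median probe set. The arrays share their conditions and normalization, so these values describe likeness of pattern only. For Creb1 1452901_at they were Dgka (r = 0.986), Dnaja2 (r = 0.985) and Mcc (r = 0.984). For Crem 1449037_at they were Rpain (r = 0.910), Inip (r = 0.900) and Mlx (r = 0.893). For Atf2 1426583_at they were Kctd18 (r = 0.964), Rabep1 (r = 0.961) and Tbl1xr1 (r = 0.953), and for Atf7 1437645_at Drap1 (r = 0.965), Ubald1 (r = 0.963) and 2310061I04Rik (r = 0.951).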

How the data were processed

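mRNA levels were measured on Affymetrix mouse expression arrays of 10 keratinocyte samples. The authors deposited RMA log2 values per probe set, made in Affymetrix Expression Console according to the submitters' processing notes (versions not given); RMA subtracts background, brings the arrays onto 1 distribution and summarizes the probes of a set. No further normalization was applied in the main analysis. Arrays hold no read depth, and their number limits the precision.

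Of 45101 probe sets, 64 array controls were left out. In the platform annotation 34945 of the rest carry 1 symbol, 932 several and 9160 none, and 34741 were matched to RefSeq by gene number, which changed 0 symbols. All arrays entered 1 fit in limma 3.58.1 (R 4.3.3) with a mean per condition and 6 residual degrees of freedom. Tests were two-sided, adjusted by Benjamini-Hochberg over 45037 probe sets, and called at an adjusted p under 0.05. The difference of each probe set from the mean of the rest of its gene was tested likewise over 25762 probe sets. The code was tested on simulated data.

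The members and lists were chosen with earlier results of these data known. All member probe sets are named, and of each list up to 3 genes per comparison with the smallest adjusted p among those called; other called genes are marked, and Crebbp, Ep300, Prkaca, Prkacb, Fos and Nr4a1 were added, after their values were seen, as examples that did not pass. Rps6ka1, Rps6ka2, Rps6ka4, Pde4c and Areg of the lists, and the marker Dsg3, have no probe set with that symbol alone. The marker lists are Krt5, Krt14, Trp63, Krt1, Krt10, Ivl and Dsg3 (keratinocytes), Col1a1, Col1a2, Col3a1, Dcn, Lum and Pdgfra (fibroblasts), Dct, Tyrp1, Pmel and Mlana (melanocytes), Ptprc, Cd74, Cd207 and Lyz2 (immune cells), and Pecam1, Cdh5 and Kdr (endothelial cells).

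The alternatives were median centring, quantile normalization, omission of the dimmest 40% of probe sets, and an intensity trend. Others were omission of _x_at and _s_at probe sets, a replicate block, and a fit restricted to the arrays being compared. A subset of the controls (differentiated arrays 1 and 2, or 3 and 4), a t-test per probe set, and the methods' threshold of 0.5 were also used. So were gene means, limma diffSplice, only bright probe sets within a gene, and each array left out in turn. Promoters came from RefSeq (GRCm38.p6).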

Additional observations from a re-analysis of the deposited data

Results flagged for a closer look

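In the group of 4 differentiated arrays, no array stood apart from the others by Dixon's test for any of the 17 member probe sets (largest ratio 0.773, for Creb1 1452529_a_at). Groups of 2 arrays were not tested.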

How the results depend on the processing

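The count of member probe sets that passed was 0 in all comparisons under all alternatives except the following, all for differentiation unless stated. It was 1 with the replicate block (Crem 1449037_at, adjusted p = 0.0487), and it ran from 0 to 1 when each array was left out in turn (Creb1 1428755_at, adjusted p = 0.0490, without either 5-AZA array). By a t-test per probe set at p under 0.05 it was 2 before and 0 after Benjamini-Hochberg adjustment, and 0 with A-C/EBP and 5-AZA. The methods name a t-test but do not say that it was used on single probe sets. Means lay more than 0.5 apart for 1 member upon differentiation, 2 under A-C/EBP and 0 under 5-AZA. For all 45037 probe sets tested, these counts were 6825 upon differentiation, 3399 under A-C/EBP and 1844 under 5-AZA. In the test within a gene the count of members was 0 throughout. The numbers do not pair the arrays by any label, and the differences between replicates 1 and 2 correlated between groups at r = 0.314 to 0.581. The block changed no other member call. Numbers 3 and 4 occur only among differentiated arrays, so the block fits those arrays exactly and its differences do not draw on them. Over 317 values of member differences per comparison, 16 changed sign upon differentiation, 21 under A-C/EBP and 18 under 5-AZA, of which 1, 0 and 0 had a difference over 0.25 in size; no passing value did.

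Over the lists of related genes, the replicate block gave 30, 5 and 6 calls in the 3 comparisons in place of 17, 2 and 0. Its differences do not draw on differentiated arrays 3 and 4. With differentiated arrays 1 and 2 only there were 9 upon differentiation. With A-C/EBP there were 0 calls after median centring, with an intensity trend, without _x_at and _s_at probe sets, when the controls were differentiated arrays 1 and 2 or 3 and 4, and when the fit held only the compared conditions, and 1 without the dimmest probe sets. Leaving out each array in turn gave 4 to 21 calls upon differentiation, 0 to 4 under A-C/EBP and 0 under 5-AZA.

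Over all probe sets, 4789, 450 and 22 passed, against 5473, 1195 and 488 with the block, 2464, 48 and 15 when only differentiated arrays 1 and 2 served as controls, and 3427, 39 and 0 when 3 and 4 did. Leaving out each array in turn gave 2125 (without undifferentiated replicate 1) to 4850 upon differentiation, 59 (without A-C/EBP replicate 2) to 619 (without A-C/EBP replicate 1) with A-C/EBP, and 2 (without 5-AZA replicate 2) to 30 with 5-AZA. With A-C/EBP it was 162 with only the compared conditions in the fit and 296 after median centring. With 5-AZA it was 13 after median centring, 34 after quantile normalization, 42 without the dimmest probe sets, 50 with an intensity trend and 8 without _x_at and _s_at probe sets. Within genes 878, 35 and 1 passed, against 1060, 173 and 35 with the block. The differences with the block do not draw on differentiated arrays 3 and 4. The causes of these changes in count were not tested.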
